A study of Mus musculus with 4 samples.

Results

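YAP binding was described at 10 genes that build the water barrier of the skin, Abca12, Alox12b, Aloxe3, Cers3, Elovl4, Ugcg, Tgm1, Tgm3, Evpl and Ppl. Their sites were the peaks whose summit, the highest point of a peak, lay inside the gene or lay within 100 kb of it with no other protein-coding gene nearer. This rule used position only and found 69 of 36576 peaks in wild type (WT) and 37 of 14879 peaks in the Bmal1 knockout (KO). A WT peak was linked to all 10 genes, and a KO peak to 9 of them. Over all protein-coding genes, 53.2% had a linked WT peak and 30.1% a linked KO peak. These shares were not matched for gene length. The 10 genes had a median span of 30.5 kb, against 17.3 kb over all protein-coding genes.

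YAP was mapped by ChIP-seq (chromatin immunoprecipitation followed by sequencing) in epidermal cells of adult mice of 18 to 25 weeks, killed at Zeitgeber time 4 (ZT4), which is 4 h after lights on. The WT group is labelled Bmal1 WT. The other group is labelled Bmal1 KO in the genotype field and Bmal1cKO in the treatment text, and the sources used here do not give the driver of the deletion or the cells in which it took place. Bmal1 encodes a core activator of the circadian clock. Both groups shared tissue, age range, time of day, a double fixation and the anti-YAP antibody. Each genotype gave 1 pooled peak list, so replicate error could not be measured, no test was run, and differences between the lists compare these pools only. The labels call the tissue epidermis, and a peak list holds no expression of marker genes with which to check that. The chromatin came from a suspension of epidermal cells, and the labels name no sort of a cell type. With 1 ChIP sample per genotype, fewer cells with YAP at a site, less YAP per cell and a difference between the ChIP preparations cannot be told apart.

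YAP is a transcriptional co-activator of the Hippo pathway. It has no DNA-binding domain of its own and reaches DNA mainly through TEAD factors. The outermost layer of the epidermis holds water by means of flattened dead cells, each wrapped in a cross-linked protein shell, the cornified envelope, and embedded in sheets of ceramide-rich lipid. Some of the genes act on the lipids: Elovl4 and Cers3 make very long acyl chains and join them into ceramides, Ugcg adds glucose, Abca12 loads the product into secretory granules, and Alox12b and Aloxe3 oxidise its linoleate. The others build the protein shell: the transglutaminases Tgm1 and Tgm3 cross-link it, and the plakins Evpl and Ppl are parts of its scaffold.

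Promoter windows of 300 bp, from 250 bp before to 50 bp from the start site, were found for 7 of the 10 genes in RefSeq (build GRCm38.p6); Aloxe3, Evpl and Ppl were without one. A WT peak overlapped the window of 6 of the 7 genes, all but Alox12b, against 36.1% of protein-coding genes with a window. A KO peak overlapped that of 4 of the 7 genes, Abca12, Cers3, Tgm1 and Tgm3, against 10.8%. In Tgm1 and Ugcg the summit of the overlapping WT peak lay outside the window. The 4 windows that held a WT summit are shown here. They run 5′ to 3′ on the strand of the gene, base 251 is the start site, and capitals mark matches to a TEAD motif (GGAATG), an AP-1 motif (TGANTCA) or an E-box (CACGTG), searched on both strands.
Abca12, chr1:71414861-71415160, minus strand: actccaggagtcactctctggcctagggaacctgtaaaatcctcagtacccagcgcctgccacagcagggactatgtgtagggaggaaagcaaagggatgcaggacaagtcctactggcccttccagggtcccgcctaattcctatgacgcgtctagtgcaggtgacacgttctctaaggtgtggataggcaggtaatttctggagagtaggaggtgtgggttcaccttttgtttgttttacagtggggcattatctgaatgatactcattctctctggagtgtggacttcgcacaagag
Cers3, chr7:66743254-66743553, plus strand: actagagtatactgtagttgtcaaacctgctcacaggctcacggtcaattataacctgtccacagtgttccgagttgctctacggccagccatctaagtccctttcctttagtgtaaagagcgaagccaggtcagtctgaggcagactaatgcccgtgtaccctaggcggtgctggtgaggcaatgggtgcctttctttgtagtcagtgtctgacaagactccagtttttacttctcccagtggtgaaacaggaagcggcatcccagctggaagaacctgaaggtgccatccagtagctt
Tgm3, chr2:130012090-130012389, plus strand: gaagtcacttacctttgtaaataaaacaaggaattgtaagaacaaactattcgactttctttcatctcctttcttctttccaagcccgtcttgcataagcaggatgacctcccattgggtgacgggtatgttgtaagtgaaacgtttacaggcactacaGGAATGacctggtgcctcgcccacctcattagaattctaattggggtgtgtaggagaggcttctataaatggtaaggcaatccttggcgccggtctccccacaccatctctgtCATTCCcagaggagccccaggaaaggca
Elovl4, chr9:83806256-83806555, minus strand: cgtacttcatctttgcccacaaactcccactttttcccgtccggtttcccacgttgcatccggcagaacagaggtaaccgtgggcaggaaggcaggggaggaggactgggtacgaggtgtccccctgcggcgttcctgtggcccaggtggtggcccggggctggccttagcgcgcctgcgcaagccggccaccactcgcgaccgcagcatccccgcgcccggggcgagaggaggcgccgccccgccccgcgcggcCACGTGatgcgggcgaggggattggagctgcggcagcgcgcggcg
In Cers3, Tgm3, Tgm1 and Ugcg the start used for the window lies inside the gene span, and distances to a start below refer to such RefSeq starts. The WT summit lay at base 155 in Abca12, 292 in Cers3, 223 in Tgm3 and 274 in Elovl4. Tgm3 held the TEAD letters starting at bases 160 and 273, and Elovl4 held the E-box letters starting at base 256. Abca12 and Cers3 held none of the 3 motifs in these windows. Of all 21045 promoter windows of protein-coding genes, 13.5% held the TEAD letters, 7.04% the AP-1 letters and 7.91% the E-box letters. Among the 8 windows of the 7 genes (Tgm1 has 2), the counts were 1, 0 and 1. These are matches of letters only, and the windows do not cover the whole peaks.

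The strength of a site is given as recovered reads, the whole number of ChIP reads over the summit, solved from the fold and the −log10 p in the authors' peak lists. An evenly spread ChIP gave 9.63 such reads in both lists, so reads can be set side by side in this unit. A WT peak is called kept when it shared 1 bp or more with a KO peak, and the rest are called WT-only. The KO value of a kept peak is that at the summit of the strongest overlapping KO peak. Log2 KO to WT ratios were taken after subtracting the even background, with the counting standard error (SE), which covers sampling of reads only.

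Of the 69 WT peaks, 36 were kept (52.2%, exact 95% Clopper-Pearson interval 39.8 to 64.4) and 33 were WT-only, against 39.1% kept over all WT peaks. The WT peaks of these genes held a median of 70 reads (33 to 244), and all WT peaks a median of 61. Kept peaks of the 10 genes had a median of 111 WT reads and WT-only peaks 56. All 37 KO peaks overlapped a WT peak (lower bound 90.5%), as did 99.0% of KO peaks in the whole list, so the 10 genes had no KO-only site. Of the kept peaks, 35 of 36 held fewer reads above background in KO than in WT, against 99.5% of all kept peaks. The plot of reads by gene shows every site.

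**Figure D1:**
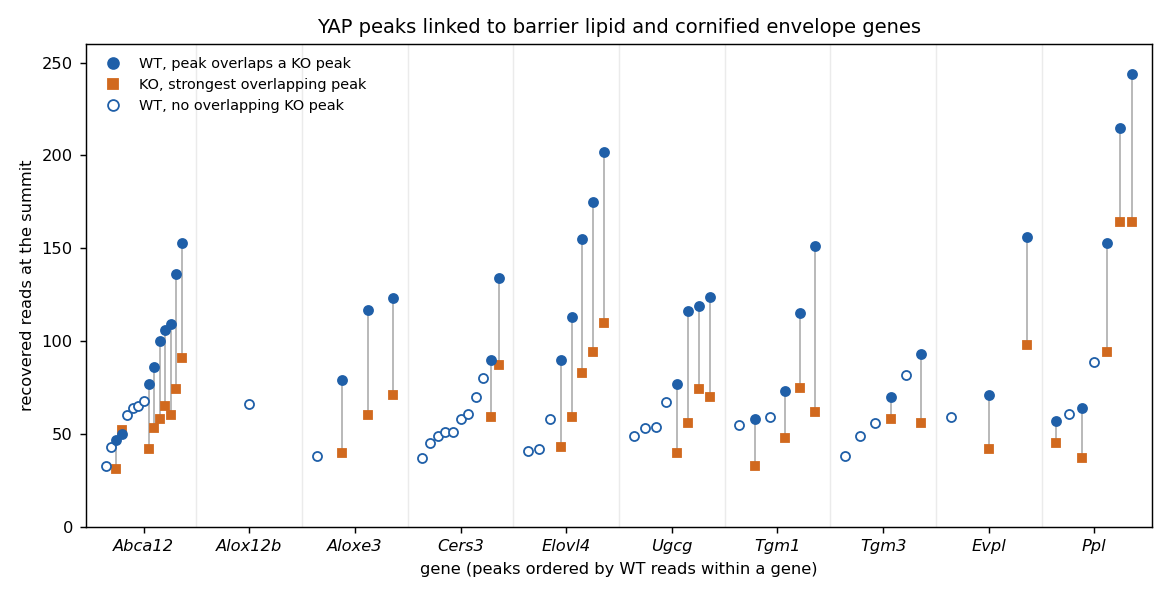
Recovered reads at the summit (y axis) of each WT peak linked to the 10 genes (x axis), ordered by WT reads within a gene; filled circles are WT peaks that overlap a KO peak, squares the strongest overlapping KO peak joined by a line, and open circles the WT-only peaks. KO squares lie below their WT circles at 35 of 36 kept peaks, and no WT-only peak exceeds 89 reads.

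Abca12, the lipid transporter gene whose loss causes the severe skin disease harlequin ichthyosis, spans chr1:71243090-71414910 and had the most sites, 15 WT peaks and 10 KO peaks. Only 0.809% of protein-coding genes had as many WT peaks, but Abca12 is long, at 171.8 kb against a median of 17.3 kb. Its inside summits gave 0.64 peaks per 10 kb of gene. The gene is read from its upper end, and 10 of its WT summits lay within 29336 bp around that end, 6 of them kept. The strongest site, chr1:71412932-71414426, lay 1482 bp inside the gene from its start, with 153 WT and 91 KO reads (log2 ratio -0.82, SE 0.21). The site over the start, chr1:71414654-71415281, with its summit 96 bp upstream, had 109 WT and 60 KO reads (-0.98, SE 0.27). Further inside, chr1:71397636-71398541 held 136 and 74 reads, and chr1:71405793-71406358 held 106 and 65. Thus the kept Abca12 sites near the start all held fewer reads in KO.

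The exception among all 36 kept peaks was also in Abca12. The peak chr1:71370132-71370681, 44581 bp downstream of the start, held 50 WT and 52 KO reads (0.07, SE 0.35). Its recovered background was 9.63 reads in WT and 14.3 in KO, and with each summit's own background the value was -0.10. The counting error is larger than either value, so the site gives no direction. Another weak site, chr1:71374230-71374925, held 47 reads and was kept by an overlap at its edge, with the KO summit of 31 reads 642 bp away. The 6 WT-only Abca12 peaks held 33 to 68 reads.

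The lipoxygenase genes Aloxe3 and Alox12b are neighbours on chromosome 11, 7956 bp apart, and act in turn on the same lipid. Aloxe3 (chr11:69125417-69149115) had 4 WT peaks, 3 of them kept. Its peak at the lower end of the gene, chr11:69125256-69126321, held 123 WT and 71 KO reads (-0.89, SE 0.24). The inside peak chr11:69133489-69134482 held 117 and 60 reads (-1.09, SE 0.27). The peak chr11:69151243-69152117, 2691 bp beyond the upper end, held 79 and 40 (-1.19, SE 0.35). Alox12b (chr11:69157072-69169791) had a single WT peak and no KO peak, the only one of the 10 genes without. That peak, chr11:69153889-69154537, held 66 reads, 2903 bp upstream of the Alox12b start and 5054 bp from Aloxe3. It lies between the genes, and the nearer gene is not shown to be the one it acts on. Of all WT peaks within 2 reads of this strength, 35.1% were kept.

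Cers3 (chr7:66733118-66823692), the ceramide synthase of the epidermal barrier, had 11 WT peaks, and 2 of them were kept. That number of WT peaks was reached by 433 of 21631 protein-coding genes, but Cers3 is also long, at 90.6 kb. The strongest peak, chr7:66743155-66743854, had its summit 41 bp downstream of the start site, with 134 WT and 87 KO reads (-0.68, SE 0.22). The other kept peak, chr7:66790055-66790865, lay inside the gene with 90 and 59 reads (-0.70, SE 0.28). The 9 WT-only peaks held 37 to 80 reads. Most of them were weak. Were each of the 11 peaks kept as often as all WT peaks within 2 reads of it, 3.72 would be kept.

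Elovl4 (chr9:83778692-83806305), which elongates fatty acids to very long chains, had 8 WT peaks, 5 of them kept. Its strong sites lay toward and beyond the end of the gene, not at its start. The strongest, chr9:83720696-83721670, was 57557 bp beyond the gene, with 202 WT and 110 KO reads (-0.94, SE 0.18). The inside peak chr9:83781716-83782635 held 175 and 94 reads (-0.97, SE 0.20), and the peak chr9:83776722-83777258, 1704 bp beyond the gene, held 155 and 83 (-0.99, SE 0.22). The 2 remaining kept peaks, 47605 and 28393 bp beyond, held 113 and 59 reads and 90 and 43 reads. At the start site, by contrast, the peak in the window printed above held 41 WT reads and was WT-only. With a window of 10 kb in place of 100 kb, Elovl4 had 2 kept of 4 WT peaks.

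Ugcg (chr4:59189507-59222833), which encodes glucosylceramide synthase, had 8 WT peaks, 4 of them kept. Only 1 of its 8 summits lay inside the gene. This peak, chr4:59218094-59218680, held 119 WT and 74 KO reads (-0.76, SE 0.24). The peak chr4:59239187-59240582, 17433 bp past the gene, was the strongest, with 124 and 70 reads (-0.92, SE 0.24). The peak chr4:59174791-59175529, 14408 bp upstream of the start site, held 116 and 56 (-1.20, SE 0.27). The last kept peak, 29992 bp past the gene, held 77 and 40. The peak over the promoter window, with its summit 339 bp upstream, held 54 reads and was WT-only. Within 10 kb, 1 of 5 Ugcg peaks was kept.

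Tgm1 (chr14:55700009-55713921), the membrane-anchored transglutaminase of the envelope, had 6 WT peaks, 4 of them kept. Its 5 inside summits gave 3.59 peaks per 10 kb of gene, the densest of the 10 genes, where the others had 0 to 1.09. The peak chr14:55711010-55711650, 1831 bp downstream of the nearer of its 2 RefSeq starts, held 151 WT and 62 KO reads. Its log2 ratio of -1.43 (SE 0.25) was the lowest of the 36 kept peaks. In the whole list, 81 of 3686 kept peaks with at least 120 WT reads (2.20%) had a value as low. Its recovered background was 17.3 reads in WT and 9.63 in KO, and with each summit's own background the ratio was -1.35. Next to it, the wide peak chr14:55713427-55715412 over and upstream of the start held 115 and 75 reads (-0.69, SE 0.24), and overlapped 2 KO peaks. Neighbouring sites at the start of Tgm1 thus had ratios of -1.43 and -0.69. The first was picked as the lowest of 36, and the difference between them was not tested.

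Tgm3 (chr2:129987794-130050399), a transglutaminase of envelope and hair, had 6 WT peaks, 2 of them kept. The inside peak chr2:129999854-130000898 held 93 WT and 56 KO reads (-0.85, SE 0.29). The peak over the start site, chr2:130011961-130013178, held 70 and 58 reads (-0.32, SE 0.30). This was the highest ratio of the kept promoter sites, and its error reaches close to 0. The recovered background of this site was 10.1 reads in WT and 14.3 in KO. With each summit's own background its ratio was -0.45. Its overlap was under 50% of the wider peak, so with 50% reciprocal overlap Tgm3 kept 1 peak. The strongest WT-only peak of Tgm3 held 82 reads, 69450 bp below the gene, over a recovered background of 20.2 reads.

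The plakin genes Evpl and Ppl encode large proteins that bridge desmosomes, keratin and the envelope. Evpl (chr11:116220559-116238165) had 3 WT peaks, 2 of them kept. Its strongest, chr11:116236894-116239118, was the widest peak of the 10 genes at 2225 bp and covered the upper end of the gene, with 156 WT reads. In KO it was called as 2 peaks, of 98 reads inside the gene and 86 reads beside the WT summit, 6 bp away. Against the stronger KO peak the log2 ratio was -0.73 (SE 0.20), and against the nearer one it was -0.94. The inside peak held 71 and 42 reads, and was not kept with 50% reciprocal overlap. The third Evpl peak held 59 reads and was WT-only.

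Ppl (chr16:5086291-5132481) held the strongest sites of all 10 genes, and 0.245% of protein-coding genes had a linked WT peak as strong. It had 7 WT peaks, 5 of them kept. Beyond the upper end of the gene, the peaks chr16:5134387-5135755 and chr16:5135810-5137183 had summits 1512 bp apart with 244 and 215 WT reads. In KO a single peak covered both, with 164 reads at a summit 15 bp from the weaker WT summit. The ratio at that summit was -0.41 (SE 0.16). At the site of 244 reads the value of -0.60 was set against the same KO summit, 1527 bp away. No KO summit was listed at its own position, so its KO reads are not known from the lists. This peak was not kept with 50% reciprocal overlap or with summits required within 200 bp. Inside Ppl, chr16:5118940-5120011 held 153 and 94 reads (-0.76, SE 0.21). The WT-only peak chr16:5131184-5131875 held 89 reads, the most of any WT-only site of the 10 genes.

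**Figure D2:**
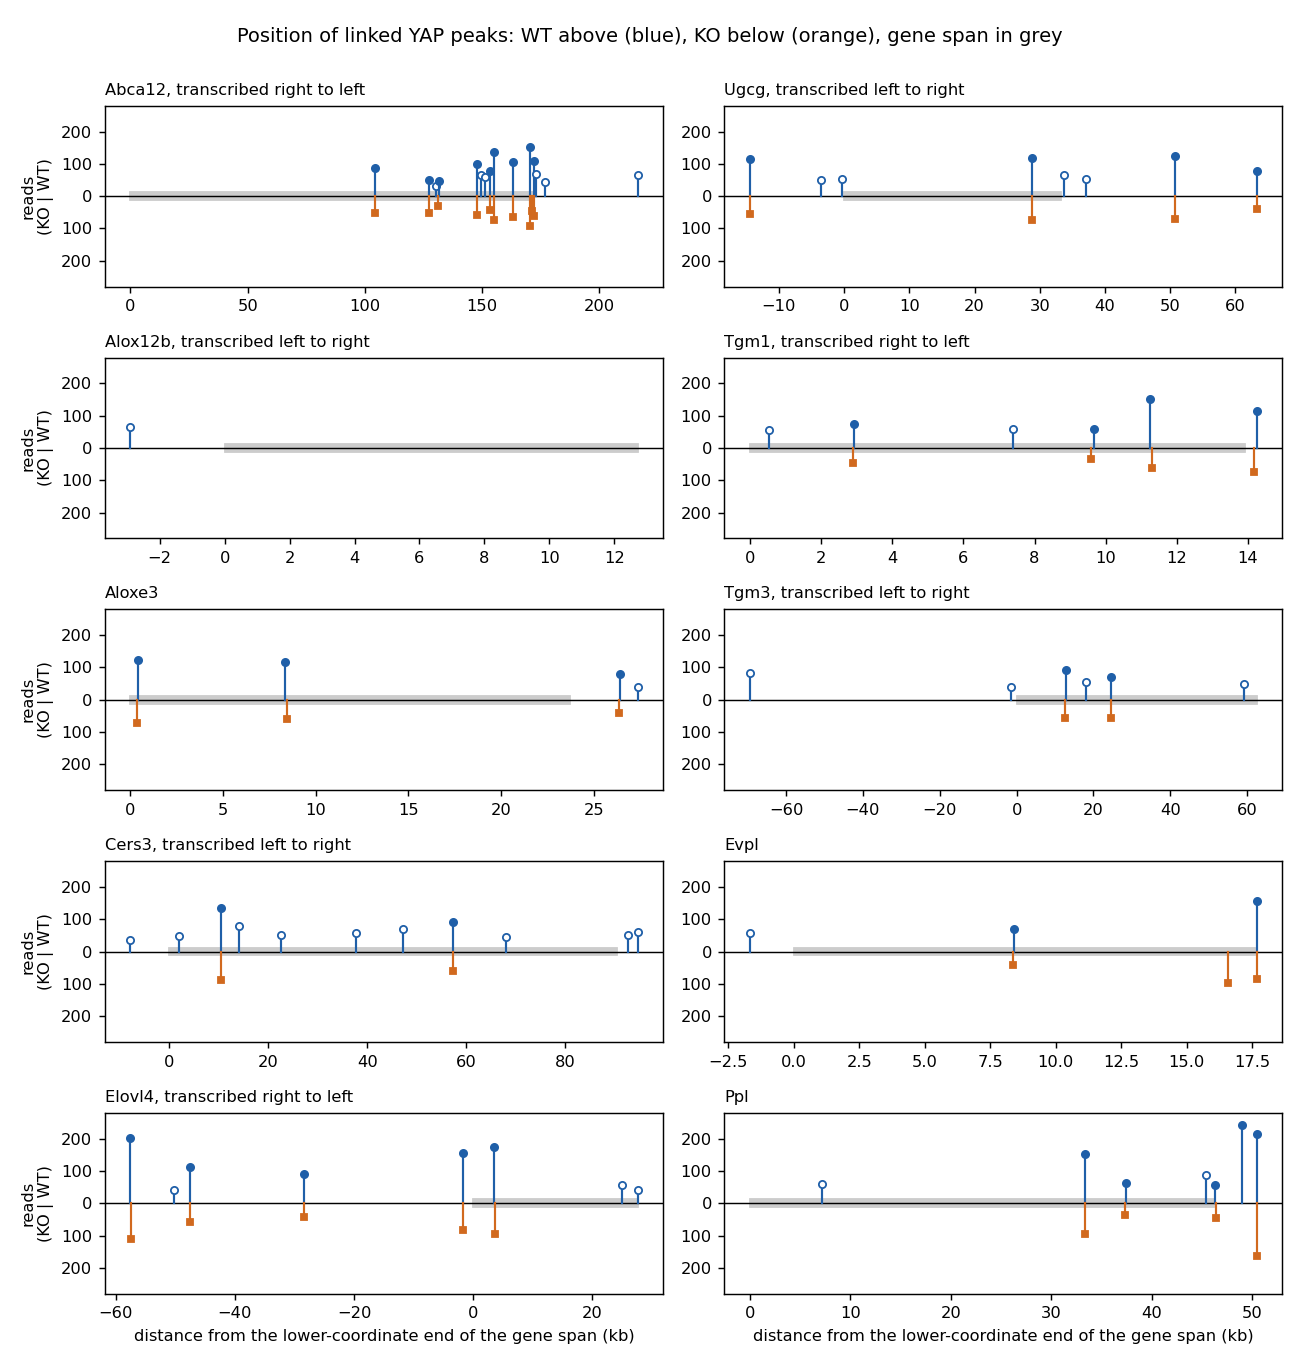
Recovered reads (y axis) of WT peaks (blue, upward; open circles are WT-only) and KO peaks (orange, downward) against the distance of the summit from the lower-coordinate end of the gene span in kb (x axis, a scale per gene), with the span in grey. Abca12 sites crowd at the start of the gene, the Elovl4 sites of 202 and 155 WT reads lie outside the gene, and the Ppl sites of 244 and 215 WT reads face 1 KO summit of 164 reads.

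Whether a site of these genes was kept went with its WT reads. Every one of the 21 sites that reached 100 WT reads was kept, as were 5 of the 34 sites with fewer than 70. Strong sites elsewhere behaved alike: a KO overlap was found at 96.8% of WT peaks holding at least 100 but fewer than 120 reads. At 120 reads or more the whole-list share was 99.8%. It was 3.10% under 50 reads, and 13.4% at 50 or more but fewer than 60. From 70 to below 80 reads 6 of 7 sites of the 10 genes were kept, against 54.9% of all WT peaks of that strength. From 80 to below 100 reads 4 of 7 were kept, against 80.7%, and from 60 to below 70 reads 1 of 9, against 31.8%. In each of these read bands, the exact interval for the 10 genes includes the share over all WT peaks. Were each of the 69 peaks kept as often as all WT peaks within 2 reads of it, 35.3 would be kept, beside the 36 observed. The higher kept share of the 10 genes thus comes with stronger WT peaks: 18.8% had at least 120 reads, against 10.1% of all. The share also depends on the length of the WT list. With that list reduced by score to the number of KO peaks, 32 of 36 sites were kept (88.9%), against 77.8% overall.

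**Figure D3:**
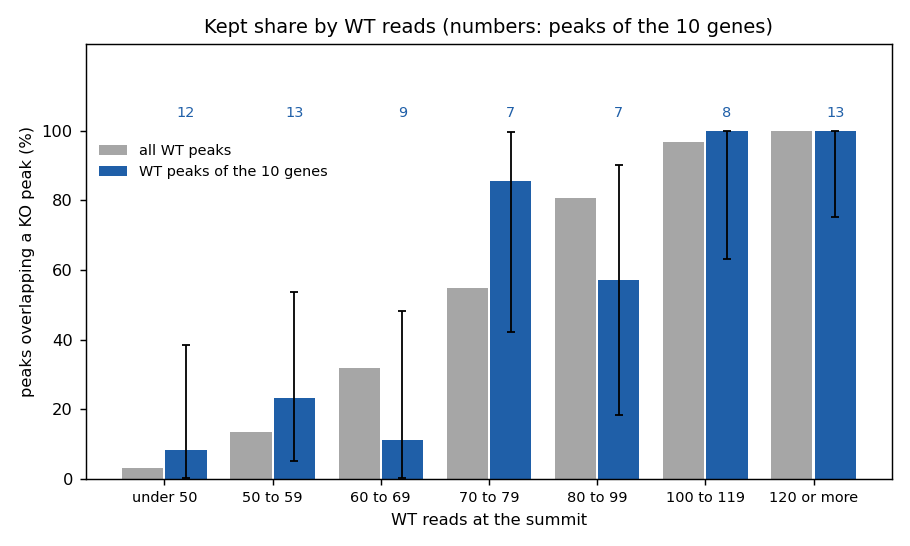
Share of WT peaks that overlap a KO peak (y axis, percent) by WT reads at the summit (x axis), for all WT peaks (grey) and for the 69 peaks of the 10 genes (blue, with exact 95% intervals that cover counting error only and the number of peaks above). The 21 blue peaks of at least 100 reads were kept, and every blue interval includes the grey share.

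The size of the difference in reads was close to that of other sites. Over the 36 kept peaks the log2 ratio had a median of -0.89 (quartiles -1.005 and -0.73), or 0.538 as a plain ratio, against -0.88 (-1.07 and -0.69) over all 14315 kept peaks. At 9 of 36 kept peaks the log2 ratio was -1 or lower, against 32.9% of all kept peaks. Among the 13 sites of at least 120 WT reads, 1 was that low, the Tgm1 site, against 30.7% of all such sites. Their median was -0.89 with 153 WT and 91 KO reads, against -0.88 with 146 and 84 over 3686 sites. A weak site has a ratio here only if a KO peak was called at it. In the whole list the 375 kept sites of at least 200 reads had a median of -0.71 (quartiles -0.83 and -0.57). The Ppl site of 215 reads lay above the upper quartile and the Elovl4 site of 202 reads below the lower quartile.

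**Figure D4:**
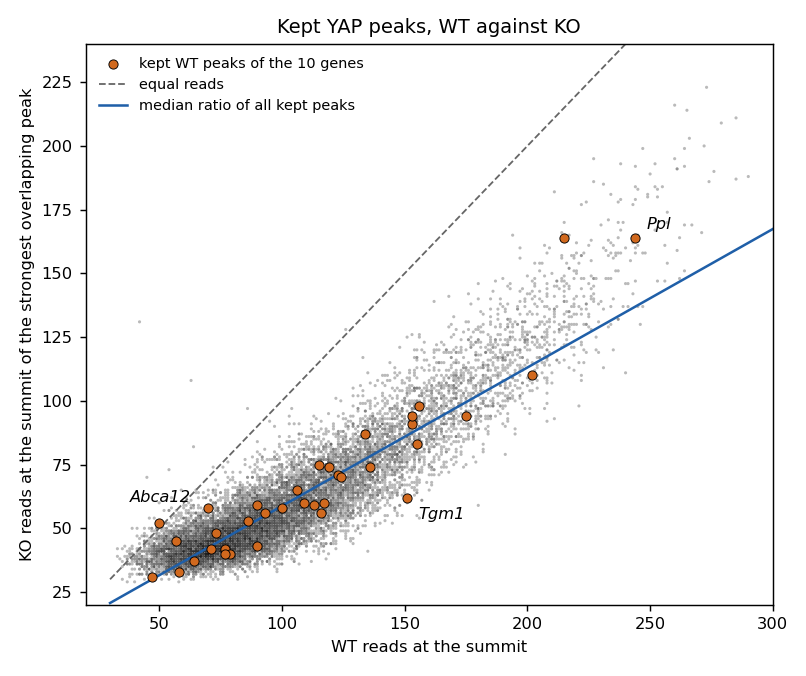
KO reads at the summit of the strongest overlapping KO peak (y axis) against WT reads (x axis) at all kept WT peaks (grey points, darker where several coincide) and at the 36 kept peaks of the 10 genes (orange), with the line of equal reads (dashed) and the median ratio of all kept peaks (blue). The Tgm1 site of 151 WT and 62 KO reads lies furthest below the blue line, and the Abca12 site of 50 and 52 reads lies above the line of equal reads.

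The 6 lipid genes kept 23 of 47 WT peaks (48.9%, 34.1 to 63.9) and the 4 envelope genes 13 of 22 (59.1%, 36.4 to 79.3). These intervals overlap, and the difference was not tested. Were each peak kept as often as all WT peaks within 2 reads of it, 23.7 and 11.6 would be kept. Median WT reads were 68 and 70.5. The median log2 ratio of kept peaks was -0.94 for the lipid genes and -0.73 for the envelope genes. The error of these medians was not estimated. In the list of 58 other genes described below the order was the opposite, at -0.86 for lipid and -0.90 for envelope genes. Of the 69 summits 39 (56.5%) lay inside a gene, against 53.3% of all WT peaks. Inside sites were kept in 22 of 39 cases (56.4%) and outside sites in 14 of 30 (46.7%). Over all WT peaks these shares were 37.4% and 41.2%, in the opposite order, and the difference was not tested. Neighbouring summits linked to the same gene had a median spacing of 7320 bp, against 13414 bp between all neighbouring WT summits, but the rule itself gathers sites around a gene.

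A list of 58 other genes was drawn up for barrier formation, without the epidermal differentiation complex. Its envelope class also took in the plakins Macf1, Plec and Dst, whose part in the barrier was not checked here. A WT peak was linked to 54 of the 58 genes and a KO peak to 46, against 53.2% and 30.1% of all protein-coding genes. Their median span was 31.0 kb, against 17.3 kb. They kept 175 of 314 WT peaks (55.7%, 50.05 to 61.3), against 39.1% of all WT peaks. Their WT peaks held a median of 73.5 reads, against 61 over all WT peaks, and the kept share was not matched for reads. The share was 47.5% when an overlap had to cover 50% of both peaks, against 32.1% of all WT peaks. In the reduced list of WT peaks it was 86.5%, against 77.8%. All 175 kept peaks held fewer reads above background in KO, against 99.5% of all kept peaks. Their median log2 ratio was -0.88, and that of all kept peaks was also -0.88. The values of the 10 genes and of this list thus lay close together.

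The 5 genes of that list with the strongest WT site were Macf1, Plec, Sdr9c7, Dst and Dsp. A barrier role of Macf1, Plec and Dst, as said above, was not checked. Macf1, a giant plakin that links actin and microtubules, had 21 WT peaks, 10 of them kept, and a top site of 272 WT and 200 KO reads (-0.46, SE 0.14). Plec, which encodes plectin, had 11, with 8 kept, and a top site of 265 and 214 reads (-0.32, SE 0.14). Dst had 8, with 5 kept, and a top site of 217 and 165 reads, and Dsp, which encodes desmoplakin, had 18, with 9 kept, and 209 and 131 reads. Sdr9c7, an enzyme that acts after the lipoxygenases, had 7 WT peaks, 4 kept, and a top site of 222 and 177 reads (-0.34, SE 0.15).

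By number of WT peaks, Sgms1, a sphingomyelin synthase gene, came first with 26, of which 15 were kept, and Cers6, a ceramide synthase gene, had 22 with 9 kept. These are long genes, of 267.2 and 253.1 kb. Per list, 198 WT peaks were linked to the 40 lipid genes and 116 to the 18 envelope genes. Elovl6 had 16 with 9 kept. Sptlc3, a subunit of the enzyme that starts sphingolipid synthesis, kept 6 of 6, and Casp14, the caspase of cornification, 5 of 5. Spink5, a protease inhibitor gene of the barrier, kept 9 of 11, Scel, the gene of the envelope precursor sciellin, 7 of 14, and Gltp, a glycolipid transfer protein gene, 7 of 10. Abhd5, a co-activator of lipases, kept 4 of 9, Tgm5 5 of 8 and Elovl7 4 of 8. Sgms2 kept 4 of 7, Nipal4 5 of 6, Pnpla1 3 of 6, Elovl5 2 of 6 and Dgat2 1 of 6. Sptlc1 kept 3 of 5 and Sult2b1 1 of 5. Elovl1, Cers4, Cers5, Sptssb, St14, Tgm2, Smpd1 and Sgpp2 had WT peaks and no kept one, with at most 77 reads. Asprv1, Degs2, Elovl3 and Fa2h had no WT peak.

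The limit of the rule left out sites that were close to a gene but closer to another. The linked site furthest from its gene was the Tgm3 peak at 69450 bp. Just outside the rule, 1611 bp from Aloxe3, a peak of 60 WT and 37 KO reads was linked to Hes7, and 16826 bp from Elovl4 a peak of 117 and 57 reads was linked to Ttk. The nearest peaks so left out for Ugcg and Evpl were also kept, with 61 WT and 45 KO reads and with 57 and 35. Those for Abca12, Cers3, Tgm1 and Ppl were WT-only, with 49, 69, 57 and 42 reads. For Alox12b it was the WT-only Aloxe3 peak of 38 reads. Within 100 kb of Tgm3 no further WT peak was found. No linked summit lay inside a second gene.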

How the data were processed

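There were 4 samples per the labels, with 1 YAP ChIP and 1 input for each genotype. Each ChIP sample had 1 peak list, and inputs were not analysed here. Per the submitters' processing notes, Trimmomatic 0.36, SAMtools 1.5 and MACS2 2.1.1 were used with build mm10, without roles; the sources used here give no aligner, control or account of the pooling. Per the labels, 25 to 50 M single reads of 51 bp were obtained per sample. In the deposited lists the score is 10 times the −log10 q, truncated; the authors' fold is a ratio of summit signal to background, and −log10 p and −log10 q come with it. The lowest −log10 q is 2.01 in WT and 2.03 in KO.

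The ChIP reads over a summit were recovered on the assumption that the MACS2 formulas hold, by inverting those for fold and −log10 p, with a ChIP scaling of 0.694 in WT and 0.842 in KO found by search. Whole numbers gave back the deposited −log10 p, to within 0.002, for 100% of peaks, against 0.930% and 0.397% with the scaling 3% off. The method was tested on simulated data. The whole lists held a median of 61 reads (28 to 290) in WT and 52 (29 to 223) in KO. Intervals and SEs cover counting error only. The intervals treat peaks as independent, though many share a gene and the Ppl peaks of 244 and 215 WT reads share a KO peak.

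Genes were 21631 protein-coding spans of NCBI RefSeq (GRCm38.p6, the build called mm10) on chromosomes 1 to 19 and X. Overlap, linking and intervals used Python with numpy 2.4.6 and scipy 1.17.1. The named sites were, by rule, the strongest WT peak of each gene, the 12 strongest WT peaks and any KO-only peak, and of the list of 58 the 5 genes with the strongest peak and every gene with at least 5 WT peaks; other peaks, and list genes with no kept peak, were named after their values were seen. The 10 genes and the list were chosen with earlier results of these data known.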

Additional observations from a re-analysis of the deposited data

How the results depend on the processing

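No paired analysis was possible because there was only 1 list for each genotype, and no replicate could be left out. When as many WT peaks as there are KO peaks were taken by score, the kept share of the 10 genes was 88.9% and that of the 58 genes 86.5%. Over all WT peaks so taken it was 77.8%. Weak WT peaks are missing there by construction. With 50% reciprocal overlap the share of the 58 genes was 47.5%; the cause was not tested. The other 18 values of the main results moved by less than the interval (shares), 1.5 times (gene counts) or the median counting SE of a site, 0.27 (ratios). Among the 10 genes, reciprocal overlap kept 43.5% (32.1% over all WT peaks). The share was 49.3% where summits had to lie within 200 bp, 50.0% without Abca12, and 40.9% with at least 60 reads in both lists. For the limits of 200 bp and 60 reads the share over all WT peaks is not given here. The whole-list share of the main rule is no match for them. The median log2 ratio was -0.77 without background subtraction, -0.65 from the authors' fold and -0.91 with the KO peak of nearest summit. Of the numbers of kept peaks per gene, 12 values moved by over 1.5 times and 77 did not. Many of the 77 could not move. No linked summit lay inside another gene, leaving out Abca12 cannot change the other genes, and Alox12b had no kept peak to lose. Most of the 12 moved with at least 60 reads in both lists, where Tgm3 kept 0 of 3. The settings without Abca12, with at least 60 reads, with the nearest summit, with summits within 200 bp for the ratio and with each summit's own background were chosen after seeing the data. Depth limits the weak sites: the weakest listed peak held 28 reads in WT and 29 in KO, so a WT-only site is one not called in KO, not one without YAP.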
